A study of Mus musculus with 22 samples.

Results

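Islet endocrine cells of pups at postnatal day 9 (P9), sorted as tdTomato+ cells, were compared between *Isl1CKO* and control mice. The comparison took every P9 library of the series, 6 *Isl1CKO* and 5 control libraries, which are 11 of its 22 libraries, and all 27504 genes of the P9 count table. Each library was made from 100 sorted cells, and the remaining 11 libraries hold endocrine cells at E14.5. In the *Isl1CKO* mice Cre expressed from *Neurod1* deletes floxed *Isl1* in endocrine precursors, so that every *Neurod1*-lineage cell and not only the β cells is affected. The study gives the genotype as *Isl1* f/f; *Neurod1Cre*; tdTomato Ai14 for *Isl1CKO* and as *Isl1* f/+; *Neurod1Cre*; tdTomato Ai14 for controls, while the sample labels call the controls WT. Both groups therefore carry *Neurod1Cre* and the Ai14 reporter, and by the study's genotype the controls carry 1 floxed allele. The extraction protocol names pups of P9 to P10. No label says which litter, sex or sorting day a library came from, so p-values measure the spread between these libraries.

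ISL1 is a LIM-homeodomain transcription factor that is made in all islet endocrine cell types and that binds DNA together with the adaptor LDB1. Islets hold β cells, which make insulin and amylin, α cells, which make glucagon, δ cells, which make somatostatin, and rarer cells that make pancreatic polypeptide, peptide YY or ghrelin. After birth β cells mature: they gain transcripts for the glucose transporter GLUT2, for the transcription factor MAFA and for the peptide urocortin 3, and they couple glucose uptake through ATP-sensitive potassium channels and calcium entry to the release of insulin granules. The measurements here are of RNA only.

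Library totals ran from 11195637 to 13435089 counts in controls and from 8477482 to 11439791 in *Isl1CKO*. On a log scale the libraries of a group correlated with each other at 0.841 to 0.859 in controls and at 0.815 to 0.880 in *Isl1CKO*, and libraries of different groups at 0.783 to 0.835. The first principal component (22.4% of the variance) separated the groups, and the second (11.2%) set *Isl1CKO* libraries 3 and 5 apart from the rest, in opposite directions. *Isl1CKO* library 2 stood apart for glucagon and pancreatic polypeptide transcripts, as given below. Control libraries 2, 3 and 4 and *Isl1CKO* libraries 4 and 6 held 877 to 1938 scaled counts of *Xist*, the RNA of the inactive X chromosome, and the other 6 libraries held 3.75 to 17.4.

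The *Isl1* transcript itself was more abundant, not less, in *Isl1CKO* libraries. *Isl1* lies on the minus strand of chromosome 13 of GRCm38 (chr13:116298281-116309689). The scaled counts, which are counts divided by the TMM-normalised library size relative to the mean size, were 4414, 2998, 4000, 3796 and 3845 in control libraries 1 to 5 and 3730 at the lowest, 8309 at the median and 10413 at the highest in *Isl1CKO*. All *Isl1CKO* libraries but library 5 lay above every control, and library 5 lay within the control range. On the log2 scale the difference, *Isl1CKO* over control, was 1.08 with a standard error of 0.21 (adjusted p = 0.0081, edgeR) and rose to 1.29 without *Isl1CKO* libraries 3 and 5 (adjusted p = 0.00017). The counts sum all exons, including any that the floxed allele keeps, so they do not measure the protein. Within 5 Mb of *Isl1*, 33 genes were tested and 5 were called, *Isl1* included, where 4.81% of all genes tested were called. *Il6st*, which encodes the shared receptor subunit of interleukin-6 type cytokines, fell from 334 to 936 scaled counts in controls to 76.6 to 251 in *Isl1CKO* (log2 fold change -1.89, adjusted p = 0.0024). The noncoding gene *Gm48837* held 22.6 to 103 scaled counts in the controls and a single count over the 6 *Isl1CKO* libraries. It lies on the minus strand (chr13:112356925-112367845) within *Ankrd55*, which lies on the plus strand (chr13:112288451-112384002) with a log2 fold change of -2.91 (adjusted p = 0.04), a call lost in 8 of 11 fits that left out 1 library. The study counted reads with the default settings of Rsubread, which do not use strand, so reads of these genes cannot be told apart. The fourth neighbour, *Parp8*, lost its call in 9 of 11 such fits (log2 fold change -0.97, adjusted p = 0.048).

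The hormone genes did not fall alike. *Gcg*, the glucagon gene, and *Sst*, the somatostatin gene, fell furthest, the insulin genes *Ins1* and *Ins2* fell by less, and the share of *Iapp*, the amylin gene, was nearly the same in both groups. Upstream sequences are shown for *Sst*, *Gcg* and *Ins1*, which fell, for *Iapp*, which did not pass the test, and for *Chgb*, which gained the largest share of counts of any gene. They are the 250 bases before the RefSeq transcription start on GRCm38.p6, read 5′ to 3′ on the strand of the gene, and capitals mark the homeodomain core TAAT in either orientation.
Sst: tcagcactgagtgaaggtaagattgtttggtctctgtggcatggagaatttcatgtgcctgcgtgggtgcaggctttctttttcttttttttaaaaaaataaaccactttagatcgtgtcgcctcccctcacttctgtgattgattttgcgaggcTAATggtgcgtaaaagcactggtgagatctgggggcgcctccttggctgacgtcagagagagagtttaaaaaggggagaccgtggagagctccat
Gcg: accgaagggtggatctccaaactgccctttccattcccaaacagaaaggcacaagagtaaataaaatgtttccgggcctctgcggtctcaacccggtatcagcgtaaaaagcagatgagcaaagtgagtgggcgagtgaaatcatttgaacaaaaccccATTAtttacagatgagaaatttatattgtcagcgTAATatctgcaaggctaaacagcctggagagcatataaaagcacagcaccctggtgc
Ins1: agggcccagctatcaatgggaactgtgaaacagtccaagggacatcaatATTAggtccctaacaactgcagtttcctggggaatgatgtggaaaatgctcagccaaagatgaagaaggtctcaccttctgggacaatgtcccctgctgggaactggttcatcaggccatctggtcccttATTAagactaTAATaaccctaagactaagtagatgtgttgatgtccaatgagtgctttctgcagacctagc
Iapp: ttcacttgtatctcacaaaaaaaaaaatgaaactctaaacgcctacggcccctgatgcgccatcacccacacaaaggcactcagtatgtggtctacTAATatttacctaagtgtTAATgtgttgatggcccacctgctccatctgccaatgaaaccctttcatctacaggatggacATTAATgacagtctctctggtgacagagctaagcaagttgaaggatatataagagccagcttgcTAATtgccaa
Chgb: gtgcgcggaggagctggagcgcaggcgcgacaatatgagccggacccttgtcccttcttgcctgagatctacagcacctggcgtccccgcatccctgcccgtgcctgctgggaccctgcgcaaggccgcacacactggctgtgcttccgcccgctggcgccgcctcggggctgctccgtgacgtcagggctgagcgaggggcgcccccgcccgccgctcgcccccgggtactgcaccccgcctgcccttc
The windows are chr16:23890845-23891094 (minus strand) for *Sst*, chr2:62483654-62483903 (minus) for *Gcg*, chr19:52264047-52264296 (plus) for *Ins1*, chr6:142298175-142298424 (plus) for *Iapp* and chr2:132781392-132781641 (plus) for *Chgb*. The window of *Sst* holds 1 core, whose first base is 95 bases before the start, and it is the only one of the 5 with the longer word CTAATG. The window of *Gcg* holds 2 cores, that of *Ins1* 3, that of *Iapp* 5, of which a pair overlaps, and that of *Chgb* none. Among all tested genes with a window, 9916 of 13964, TAAT on either strand was present in 39.2%. It was present in 46.3% of the 270 windows of genes higher in *Isl1CKO* and in 41.6% of the 221 windows of lower genes. CTAATG was present in 4.05%, 4.07% and 7.69% of the same windows, and in 6.48% of all 27025 windows of the table, of which 55.3% held TAAT. These are descriptions of letters in the windows, and no binding was measured here.

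Hormone RNA was compared as its share of all counts of a library, which needs no scaling factor but depends on all other genes. A level share therefore does not mean a level amount relative to other genes, and the scaled counts are given below. *Ins2* took 31.2%, 39.8%, 32.9%, 38.1% and 33.7% of the counts in control libraries 1 to 5, against 7.54% at the lowest and 18.5% at the highest in *Isl1CKO*. *Ins1* took 8.95% to 10.8% in controls and 2.60% to 6.33% in *Isl1CKO*. For both genes the groups lay apart, with *Isl1CKO* libraries 5 and 6 lowest for insulin as a whole (11.7% and 11.2% for the sum of *Ins1* and *Ins2*, against 40.2% to 50.6% in controls). For *Iapp* the share was 2.34% to 2.87% in controls and 1.98% to 3.44% in *Isl1CKO*, so that the control range lay inside that of *Isl1CKO* (two-sided exact permutation test over 462 divisions of the libraries, p = 0.766, adjusted over 13 shares 0.77). *Gcg* took 6.23%, 1.74%, 1.55%, 2.89% and 5.36% of the counts in control libraries 1 to 5. In *Isl1CKO* it took 0.00744% to 0.0301% in 5 libraries and 0.367% in library 2, still below every control (exact permutation p = 0.00433, the smallest these group sizes allow, adjusted 0.007). Without library 2 the mean *Gcg* share in *Isl1CKO* was 0.0202% ± 0.0091 (SD, n = 5). *Ppy*, the pancreatic polypeptide gene, took 0.544% to 1.92% in controls and 0.0255% to 0.204% in 5 *Isl1CKO* libraries, and library 2, at 0.680%, was again the highest and lay above the lowest control (exact permutation p = 0.00866, adjusted 0.011). *Pyy*, the peptide YY gene, took 0.690% to 1.90% in controls and 0.138% to 1.69% in *Isl1CKO* (exact permutation p = 0.0606, adjusted 0.072), and *Ghrl*, the ghrelin gene, 0.00101% to 0.00595% and 0.00128% to 0.0102% (p = 0.667 in the same exact test, adjusted 0.72). *Sst* was a minor transcript of the controls, at 0.00166% to 0.00836%, and 3 counts of it were found over the 6 *Isl1CKO* libraries against 3293 over the controls. In bulk libraries fewer cells of a type and less hormone RNA per cell cannot be told apart.

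**Figure D1:**
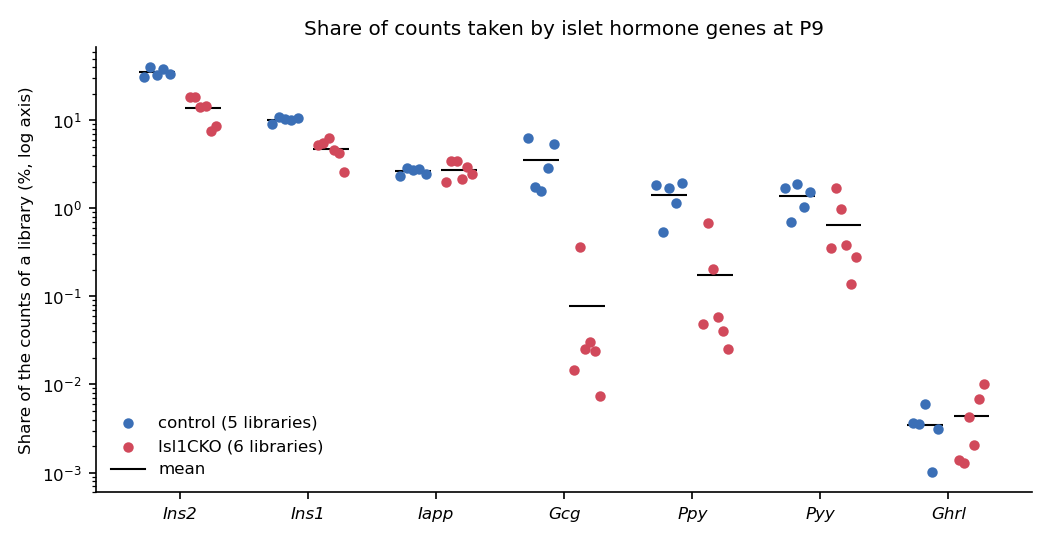
Share of all counts of a library (%, log axis) taken by 7 islet hormone genes at P9, with 1 point per library for 5 control and 6 *Isl1CKO* libraries and a line at each group's mean. The groups lie apart for *Ins2*, *Ins1* and *Gcg*, overlap for *Iapp*, *Pyy* and *Ghrl*, and the highest *Isl1CKO* point of *Gcg* (0.367%) and of *Ppy* (0.680%) is library 2. *Sst* is left out because 5 *Isl1CKO* libraries hold no count of it.

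In scaled counts the same order held, relative to the bulk of genes. *Gcg* went from 505208 ± 292856 (SD, n = 5) to 7758 ± 14577 (SD, n = 6), a log2 difference of -6.03 with a standard error of 1.02 (adjusted p = 0.0026), or -8.13 when *Isl1CKO* library 2 was left out. *Ppy* went from 201036 ± 77645 to 17446 ± 26336 (-3.53 on the log2 scale, adjusted p = 0.016), or -4.84 without library 2. *Sst* was 1786-fold lower as a ratio of summed scaled counts (95% counting interval 611 to 8665, which covers counting error only; adjusted p = 1.8e-06). *Ins1* and *Ins2* are close paralogs, and the authors did not count reads shared by them. Their log2 fold changes were -1.72 and -1.99. *Iapp* was at 376886 ± 46883 and 249840 ± 75572 (log2 fold change -0.59, adjusted p = 0.082), and its value depended on the scaling, at -0.71 (adjusted p = 0.026) with hormone genes left out of the totals and 0.05 with plain totals. *Pyy* did not pass (log2 fold change -1.65, adjusted p = 0.099), but without *Isl1CKO* library 2 it was at -2.29 (adjusted p = 0.0097). *Ghrl* was at a log2 fold change of -0.38 (adjusted p = 0.77). In all 5 of 8 hormone genes fell and none rose, with a median of -1.86, where 2.14% of all genes tested were lower. Without *Isl1CKO* libraries 3 and 5 this was 4 of 8, as *Ppy* no longer passed (adjusted p = 0.061).

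Ratios between hormone genes of the same library need no scaling either. They were chosen after the values had been seen, and there were 4 of them. The ratio of *Iapp* to *Ins2* counts was 0.0722 to 0.0824 in all 5 controls and 0.108 to 0.387 in *Isl1CKO*. Every *Isl1CKO* library lay above every control, and the mean differed by 1.46 on the log2 scale (exact permutation p = 0.00433, adjusted over 4 ratios 0.0058). *Ppy* to *Pyy*, neighbouring genes on chromosome 11, went the other way, from 0.789 to 1.25 in controls to 0.0905 to 0.403 in *Isl1CKO*, a log2 difference of -2.41 with the same exact p. For *Ins1* to *Ins2* the controls ranged from 0.266 to 0.316 and *Isl1CKO* from 0.284 to 0.557, with libraries 3 and 5 highest, and the difference of 0.30 did not pass (exact permutation p = 0.113).

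Across the transcriptome, 671 of 13964 genes tested passed at an adjusted p under 0.05 (4.81%), 372 higher in *Isl1CKO* (2.66%) and 299 lower (2.14%). The libraries of both groups lay fully apart for 751 genes (5.38%), of which 503 were among those called. The median log2 fold change was 1.76 for the higher and -1.54 for the lower genes, and 275 of the called genes differed by more than 4-fold. Of 11886 protein-coding genes tested 613 were called (5.16%), of 287 lincRNA genes 18 and of 496 processed pseudogenes 2. Because the controls held more hormone RNA, TMM factors were 0.736 to 0.833 in controls and 1.09 to 1.4 in *Isl1CKO*, and the median over all genes was 0.02. With plain totals that median moved to 0.68 and 96.2% of the called genes were higher, against 55.4% in the main test and 38.8% with the 8 hormone genes left out of the totals (median -0.09). The scaling changed which direction small differences took, and directions below are relative to TMM. Without *Isl1CKO* libraries 3 and 5, 563 genes were called, 294 higher and 269 lower.

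**Figure D2:**
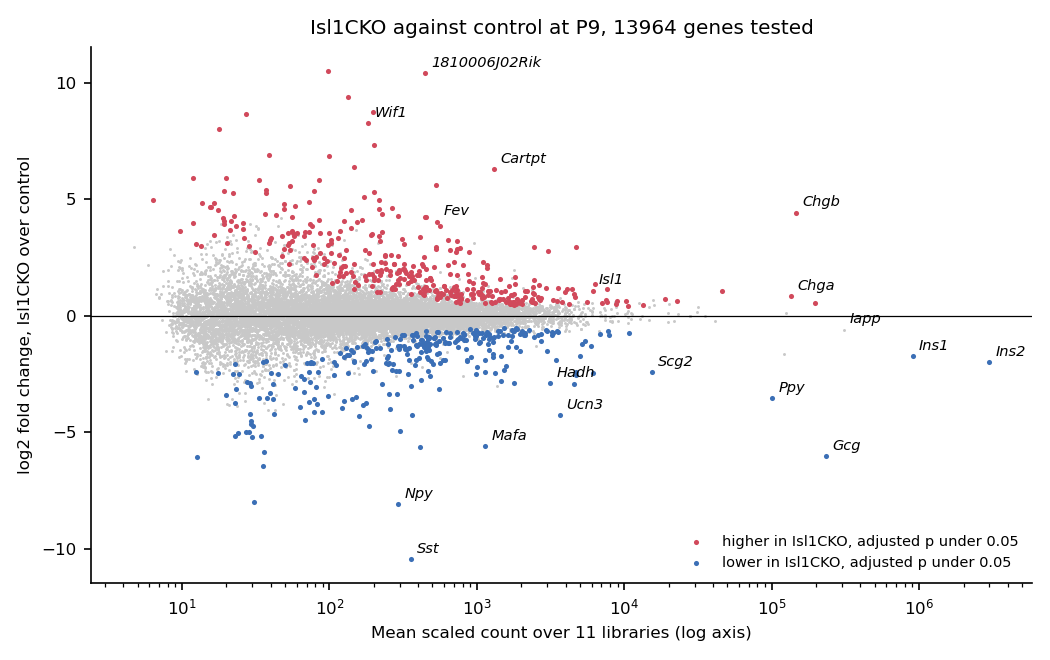
log2 fold change of *Isl1CKO* over control at P9 against the mean scaled count over 11 libraries (log axis), 1 point for each of 13964 genes tested, with the 372 higher and 299 lower genes coloured. Among the most abundant genes *Ins2*, *Ins1*, *Gcg* and *Ppy* lie below the zero line and *Chgb* and *Chga* above it, and *Isl1* lies above it at 1.08.

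The genes that fell furthest, among those with no overlap between the groups and a mean of 50 or more scaled counts, were *Sst*, *Npy*, *Gcg*, *Dapl1*, *Mafa*, *Trpm5*, *Acvr1c*, *Csf1*, *Grk5*, *Ucn3*, *Prss53* and *Ntrk2*. *Mafa*, which encodes a transcription factor that activates the insulin genes in mature β cells, held 1321, 2925, 3401, 2343 and 2201 scaled counts in control libraries 1 to 5. In *Isl1CKO* it held 5.00 at the lowest, 42 at the median and 115 at the highest and every library lay far below the lowest control (log2 fold change -5.60, standard error 0.68, adjusted p = 0.0002). *Trpm5*, which encodes a calcium-activated cation channel, held 345, 869, 561, 768 and 625 scaled counts in controls and 4.17 to 47.5 in *Isl1CKO* with a median of 21.3 (log2 fold change -4.94, adjusted p = 4.4e-05). *Acvr1c*, the gene of the activin receptor ALK7, held 235 to 616 in controls and 2.84 to 30.6 in *Isl1CKO* (log2 fold change -4.73, adjusted p = 0.00035). *Ntrk2*, the gene of the neurotrophin receptor TrkB, held 392 to 725 and 6.33 to 79.6 (log2 fold change -4.0), and *Prss53*, a serine protease gene, 535 to 974 and 11.7 to 74.9 (log2 fold change -4.25). The call of *Csf1*, a macrophage growth factor gene, was lost without control library 3 (adjusted p = 0.057), which held 389 scaled counts of it against 34.6 to 181 in the other controls. The groups lay apart for all of these genes by the rule that named them, where 5.38% of all tested genes did.

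The 12 largest rises by the same rule began from low levels in the controls. They were *Wfdc10*, *1810006J02Rik*, *Cidea*, *Rarres1*, *Wif1*, *Vstm2a*, *Steap4*, *Moxd1*, *Cartpt*, *Gm36169*, *Nt5e* and *Zfp804a*. *Wfdc10*, a gene of the WAP four-disulfide core family, had no count in any control and 19.7, 250 and 268 scaled counts at the lowest, median and highest in *Isl1CKO*, at least 252-fold higher when the controls are taken at 3 counts over the group (adjusted p = 0.0014). *1810006J02Rik* held 2 counts over the controls and 5667 over *Isl1CKO*, a ratio of 1741 (95% counting interval 482 to 14382). *Cidea*, whose protein coats lipid droplets, held 1 count over the controls and 1707 over *Isl1CKO*, and *Isl1CKO* library 5 (739 scaled counts) was far above the other 5 (91.6 to 213). *Nt5e*, which encodes the enzyme CD73 that makes adenosine outside the cell, held 18.6, 1.26, 8.14, 5.33 and 61.8 scaled counts in controls and 410, 818 and 2128 at the lowest, median and highest in *Isl1CKO* (log2 fold change 5.61, adjusted p = 0.00029). *Cartpt*, which encodes the peptide CART of neurons and islet cells, held 5.33 to 66.7 scaled counts in controls and 336 to 7224 in *Isl1CKO*, library 3 being the highest (log2 fold change 6.29, adjusted p = 0.00069; 5.55 without library 3). *Coch*, also with 2 counts over the controls, held 503 over *Isl1CKO*, a ratio of 155 (95% counting interval 42.6 to 1280).

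**Figure D3:**
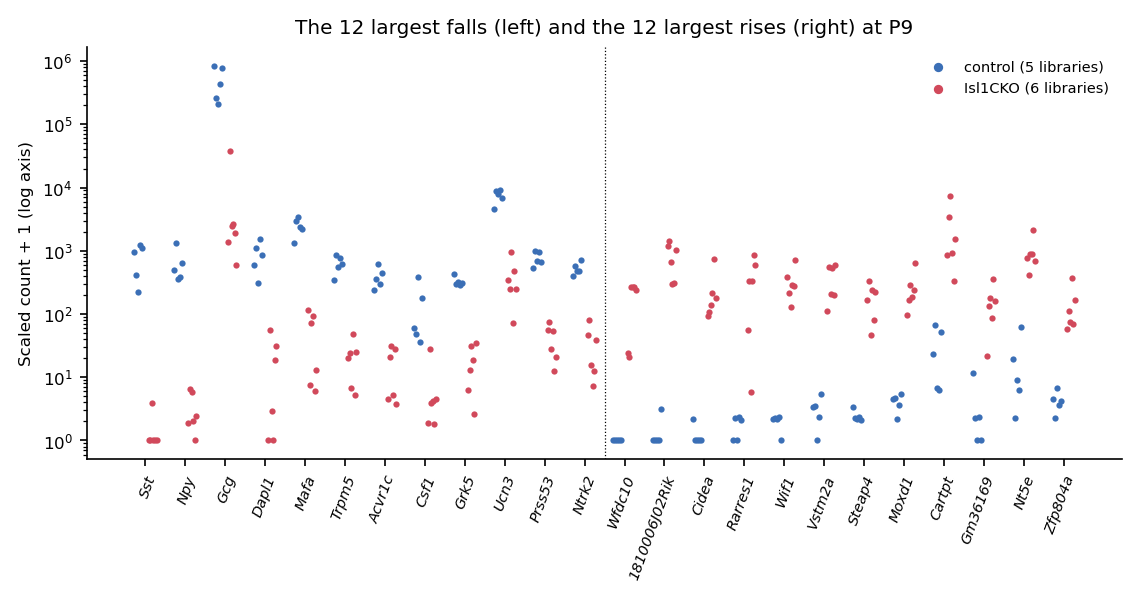
Scaled count plus 1 (log axis) of the 12 largest falls and the 12 largest rises at P9, with 1 point per library for 5 control and 6 *Isl1CKO* libraries. No gene shown has overlapping groups, which the choice of genes fixed, and for most of the rises the controls lie near the bottom of the axis, *Wfdc10* with no count in any of them.

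Genes of granule proteins and of prohormone processing moved in both directions. *Chgb*, which encodes chromogranin B, a granule matrix protein, rose from 10484, 15462, 11481, 10647 and 12225 scaled counts in control libraries 1 to 5 to 137699, 278594 and 340854 at the lowest, median and highest in *Isl1CKO*. Even the lowest of these, in library 5, lay far above the highest control (log2 fold change 4.43, standard error 0.24, adjusted p = 1.6e-07). *Chga*, the chromogranin A gene, rose less, from 86203 to 103540 in controls to 140696 to 201236 (log2 fold change 0.83, adjusted p = 0.0007), so that the ratio of *Chgb* to *Chga* counts was 0.102 to 0.149 in controls and 0.684 to 2.03 in *Isl1CKO* (log2 difference 3.55, exact permutation p = 0.00433, adjusted over the 4 ratios 0.0058). *Scg2*, which encodes secretogranin II, went the other way, from 23277 to 29856 in controls to 2354 to 10762 in *Isl1CKO* (log2 fold change -2.40, adjusted p = 0.00096). *Scg3* (0.65) and *Pam*, the gene of the enzyme that amidates peptide hormones (1.17), rose on the log2 scale with groups apart, and *Resp18* (0.71) lost its call in 8 of 11 fits that left out 1 library. Of 16 genes 5 rose and 1 fell, where 2.66% of all genes were higher and 2.14% lower, with a median of 0.18 against 0.02 over all genes; with hormone genes left out of the totals 5 rose and 3 fell, and with plain totals 12 rose. The convertase gene *Pcsk2* was at -0.02 (adjusted p = 0.96) and the carboxypeptidase gene *Cpe* at 0.18 (adjusted p = 0.46). As shares of all counts the 16 genes took 1.63% to 1.94% in controls and 5.45% to 7.92% in *Isl1CKO* (exact permutation p = 0.00433, adjusted over 13 shares 0.007), where *Chgb* alone took 0.0842% ± 0.0116 (SD, n = 5) and 2.84% ± 0.858 (SD, n = 6). A fall of the hormone share by itself raises the shares of other genes. The mean share of cytosolic ribosomal proteins also rose, from 0.849% to 1.74%, so this p is not particular to granule genes.

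Of 20 further peptide genes, 8 could be tested, 10 had too few counts and 2 were not analysed here. *Npy* and *Ucn3*, the genes of neuropeptide Y and urocortin 3, fell, and *Cartpt*, *Tac1* and *Gast* rose. Over all genes tested 2.14% were lower and 2.66% higher. *Ucn3*, a marker of mature β cells, held 4632, 8953, 8018, 9254 and 6924 scaled counts in control libraries 1 to 5 and 71.8, 295 and 964 at the lowest, median and highest in *Isl1CKO*, with no overlap (log2 fold change -4.27, adjusted p = 8.5e-05). *Tac1*, the substance P gene, had 0 to 3.49 scaled counts in controls and 20.8 to 230 in 5 *Isl1CKO* libraries, but 0.872 in library 1 (log2 fold change 5.41, adjusted p = 0.014). *Gast*, the gastrin gene, rose by 3.46 on the log2 scale (adjusted p = 0.046) but lost this call in 10 of 11 fits that left out 1 library. Without *Isl1CKO* libraries 3 and 5 only 1 of 7 tested peptide genes rose. By voom 0 of 8 rose, and with the replicate number as a block 1 of 8 did. Leaving out *Isl1CKO* library 2, 3, 4 or 6 alone also left 1 gene higher. In each of these fits 2 genes were lower.

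Among islet transcription factor genes, 2 of 19 tested fell and 3 rose, where 2.14% of all genes were lower and 2.66% higher. Most did not pass. Besides *Mafa*, *Pdx1* fell, which encodes the homeodomain factor needed for pancreas formation and β-cell function. It held 1863, 1660, 2178, 1695 and 1893 scaled counts in controls and 491, 652 and 937 at the lowest, median and highest in *Isl1CKO*, without overlap (log2 fold change -1.45, standard error 0.19, adjusted p = 0.00034). *Rfx3* (log2 fold change 1.16, adjusted p = 0.0096), *Rfx6* (1.11, adjusted p = 0.028) and the nuclear receptor gene *Esrrg* (2.58, adjusted p = 0.032) rose, each with overlapping groups, and the last 2 lost their calls in 4 of 11 fits that left out 1 library. *Neurod1*, whose promoter drives the Cre, was at 3769 to 4893 scaled counts in controls and 2746 to 4780 in *Isl1CKO* (log2 fold change -0.07, adjusted p = 0.89), and *Nkx6-1* at -0.33 (adjusted p = 0.27). The list's median was -0.10, or 0.56 with plain totals, where 9 rose and 3 fell. Of genes for other LIM-homeodomain proteins and partners of ISL1 only *Lhx1* was called among 9 tested, where 4.81% of all genes were. Its call (log2 fold change 1.65, adjusted p = 0.024) was lost in 5 of 11 fits. The partner genes *Ssbp3* and *Ssbp2* were at 0.26 and 0.29 (adjusted p = 0.41 and 0.64).

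Genes of mature β cells fell together. Of 22 such genes, all tested, 18 were lower and none was higher, with a median log2 fold change of -2.46 against 0.02 over all genes, where 2.14% of genes were lower. The count was 17 or 18 under each scaling tried and 17 without *Isl1CKO* libraries 3 and 5. *Hadh*, which encodes a mitochondrial dehydrogenase of fatty acid oxidation that restrains insulin release, held 4404, 7002, 7057, 5706 and 5765 scaled counts in controls and 559, 845 and 1101 at the lowest, median and highest in *Isl1CKO*. The groups lay far apart (log2 fold change -2.90, standard error 0.19, adjusted p = 8.5e-07). *Ppp1r1a*, a phosphatase inhibitor gene (log2 fold change -2.41), *Ero1lb*, an oxidase that forms disulfide bonds in proinsulin (-2.53), *Fkbp1b* (-2.49) and *Nnat* (-2.39) fell without overlap between the groups. *Cox6a2*, a subunit of cytochrome c oxidase, held 9.76 to 112 scaled counts in controls and 0 in 4 *Isl1CKO* libraries (log2 fold change -5.20, adjusted p = 0.021), and its call was lost without control library 3 or 4 (adjusted p = 0.05 and 0.055). *Gipr*, the receptor gene of the incretin GIP, was at -0.52 (adjusted p = 0.24), and the prolactin receptor gene *Prlr* at -0.44 (adjusted p = 0.39). This list shares *Mafa*, *Ucn3*, *Slc2a2*, *G6pc2* and *Slc30a8* with the markers of β cells. Many of its lower members are also among the insulin secretion genes that the study chose on these samples, described below. Among them are *Mafa*, *Ucn3*, *G6pc2*, *Slc30a8*, *Glp1r*, *Adra2a*, *Hadh*, *Fkbp1b*, *Sytl4* and *Nnat*. The direction of these members was fixed by that choice, so the count of 18 is not independent evidence.

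The steps from glucose entry to membrane excitation were hit unevenly. *Slc2a2*, the GLUT2 gene, held 6353 to 8754 scaled counts in controls and 1098 to 3447 in *Isl1CKO* (log2 fold change -1.73, adjusted p = 0.0007), and *G6pc2*, the gene of the islet glucose-6-phosphatase, 9255 to 13852 and 981 to 2892 (-2.48, adjusted p = 4.4e-05). *Abcc8* and *Kcnj11* encode both subunits of the ATP-sensitive potassium channel. *Abcc8* held 5100, 5666, 5662, 6259 and 6041 scaled counts in controls and 356, 1457 and 2524 at the lowest, median and highest in *Isl1CKO*, with library 5 lowest (log2 fold change -1.88, adjusted p = 0.0044). *Kcnj11* held 284 to 453 and 19.2 to 259, with no overlap, but did not pass (-1.66, adjusted p = 0.056). On the other side, *Scn3a*, a voltage-gated sodium channel gene, held 620, 292, 464, 498 and 617 in controls and 1356, 1553 and 1803 at the lowest, median and highest in *Isl1CKO* (log2 fold change 1.65, adjusted p = 0.00014). *Cacna2d1*, a calcium channel subunit gene, rose by 0.94 (adjusted p = 0.0047). In all 5 of 21 genes fell and 3 rose, where 2.14% of all genes were lower and 2.66% higher, with a median of -0.23. With plain totals 8 rose and 5 fell with a median of 0.46.

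Of receptor genes through which hormones, nutrients and nerves act on islet cells, 18 of 23 were tested. Of these, 6 were lower, where 2.14% of all genes were, and none was higher, with a median of -1.15, and with plain totals 1 was higher. Of the lower genes *Glp1r*, *Adra2a*, *Gpr119* and *Ffar1* are among the insulin secretion genes that the study chose on these samples. That choice fixed their direction. *Glp1r*, the receptor gene of the incretin GLP-1, held 5000, 10728, 10230, 9713 and 7946 scaled counts in controls and 223, 1213 and 1862 at the lowest, median and highest in *Isl1CKO*, with no overlap (log2 fold change -2.92, standard error 0.39, adjusted p = 0.00045). *Adra2a*, the α2A-adrenergic receptor gene, fell by 3.15 (adjusted p = 0.00019), the lipid receptor gene *Gpr119* by 3.72 (adjusted p = 0.0061), the fatty acid receptor genes *Ffar1* by 1.41 (adjusted p = 0.012) and *Ffar3* by 2.42 (adjusted p = 0.014), all on the log2 scale and with the groups apart. *P2ry6*, a receptor gene for uridine nucleotides, fell by 3.27 (adjusted p = 0.021), with overlap and a call lost in 3 of 11 fits that left out 1 library. *Ffar2*, another fatty acid receptor gene, did not pass (adjusted p = 0.11).

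Genes of the exocytosis machinery moved in both directions. *Sytl4*, which encodes granuphilin, a protein that docks insulin granules, held 1365 to 3240 scaled counts in controls and 214 to 1041 in *Isl1CKO* (log2 fold change -2.44, adjusted p = 0.0011). *Rab3c* and *Rab3b*, small GTPases of secretory vesicles, rose by 3.06 and 1.23 (adjusted p = 0.0064 and 0.005), and *Syt5*, a calcium sensor of vesicles, by 0.98 (adjusted p = 0.0031), all without overlap. *Snap25* rose by 0.64 (adjusted p = 0.023) and *Vamp2*, its partner in membrane fusion, fell by 0.71 (adjusted p = 0.042), but these calls were lost in 4 and 9 of 11 fits that left out 1 library. Of 26 genes tested 4 rose and 2 fell, where 2.66% of all genes were higher and 2.14% lower. The median was -0.07, or 0.57 with plain totals.

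**Figure D4:**
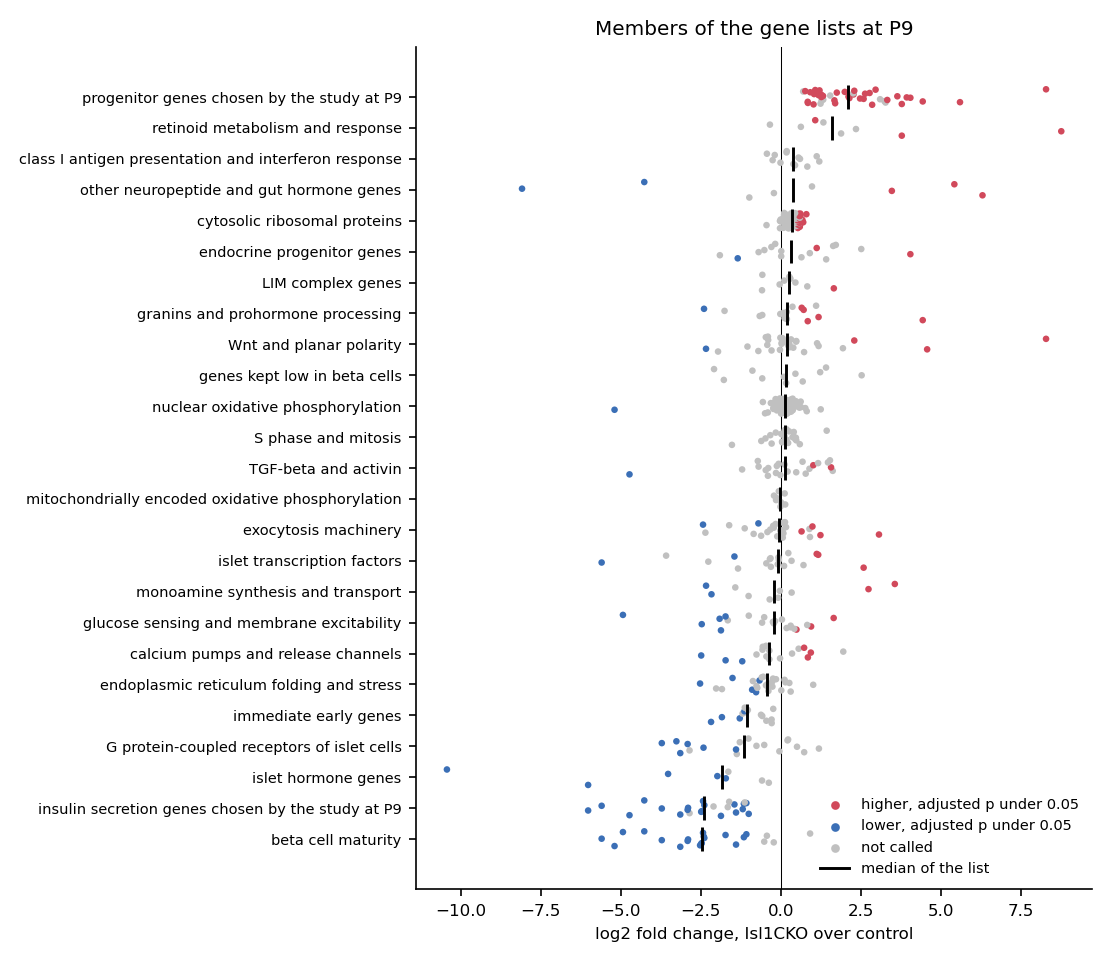
log2 fold change of *Isl1CKO* over control at P9 for each tested member of 25 gene lists, 1 point per gene, with called genes coloured and a bar at the median of each list. The lists of β-cell maturity (median -2.46) and of insulin secretion genes (-2.42) lie lowest, and the progenitor genes (2.11) highest. The last 2 of these lists were chosen by the study on these samples, and the list of β-cell maturity shares members with the insulin secretion genes.

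The study itself drew up lists of insulin secretion genes and of progenitor genes at P9, so their direction was fixed by the choice on these samples and is not independent evidence. By edgeR 19 of the 24 insulin secretion genes were lower here and none was higher (median -2.42), and of the 43 progenitor genes tested of 46, 34 were higher and none was lower (median 2.11). DESeq2, which the study used, called 24 of 24 lower and 46 of 46 higher. What varied was the size, from 0.69 for *Tagln2*, which did not pass (adjusted p = 0.057), to 8.28 for *Wif1*. *AW551984* (2.85) and *Fam213a*, a redox protein gene (2.77), had adjusted p of 4.8e-05 and 2.9e-05 and no overlap. *Vim*, the vimentin gene, held 9.76 to 224 scaled counts in controls and 160 to 1576 in *Isl1CKO* with overlap, and its call (log2 fold change 2.95, adjusted p = 0.025) was lost in 4 of 11 fits that left out 1 library. Without *Isl1CKO* libraries 3 and 5 the counts were 17 lower and 33 higher. Genes that the study chose are also among the called members of other lists here. Among the insulin secretion genes are *Mafa*, *Pdx1*, *Ucn3*, *Sytl4*, *G6pc2*, *Abcc8*, *Acvr1c* and the receptor genes named above. Among the progenitor genes are *Chga*, *Chgb*, *Fev*, *Wif1*, *Tle1*, *Aldh1a3*, *Ttr* and *Esrrg*. Counts of calls in those lists are therefore not independent evidence either.

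Genes that mark endocrine progenitors in the embryo were mostly not called. Of 16 tested of 18, 2 rose and 1 fell, where 2.66% of all genes were higher and 2.14% lower, with a median of 0.32. *Fev*, which encodes an ETS factor of late endocrine progenitors and of serotonergic neurons, held 81.5, 93.2, 1.16, 24.0 and 85.7 scaled counts in controls and 465, 1067 and 1218 at the lowest, median and highest in *Isl1CKO*. Every *Isl1CKO* library lay well above the highest control (log2 fold change 4.04, standard error 0.60, adjusted p = 0.00099). *Btbd17* was at -1.35 on the log2 scale (adjusted p = 0.047) and lost its call in 9 of 11 fits, and *Sox4* did not pass (1.63, adjusted p = 0.071), although the lowest *Isl1CKO* library (1137) lay above the highest control (988) and 1 library reached 8329. Of 10 tested genes of monoamine synthesis and transport 2 rose and 2 fell, where 2.66% of all genes were higher and 2.14% lower, and the other 6 lay between -1.43 and 0.33 on the log2 scale. *Tph1*, the first enzyme of serotonin synthesis, held 2.17 to 29.3 scaled counts in controls and 36.4 to 190 in *Isl1CKO* (log2 fold change 3.56, adjusted p = 0.022, lost in 5 of 11 fits). *Slc18a1*, the vesicular monoamine transporter VMAT1, rose from 76.8, 166, 146, 116 and 381 to 788, 1006 and 2257 at the lowest, median and highest (log2 fold change 2.73, adjusted p = 0.00081). *Th*, the first enzyme of dopamine synthesis, fell from 340 to 578 in controls to 54.2 to 144 (-2.34, adjusted p = 0.00032), and *Maob*, which breaks monoamines down, from 1847 to 3742 to 410 to 842 (-2.17, adjusted p = 4.9e-05). *Ddc*, the enzyme shared by both routes, was at -0.35 (adjusted p = 0.29). Of 22 genes that mature β cells keep low, such as *Ldha* and *Slc16a1*, 11 could be tested by edgeR and none was called, with a median of 0.16. Of these 11, 3 had an unadjusted p under 0.05, where 17.4% of all genes tested did, voom called 0 and DESeq2 called 2, where it called 9.46% of the genes it tested.

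Among genes of the Wnt list *Wif1*, *Dkk3* and *Frzb*, which encode secreted proteins, changed by large factors and not in 1 direction. *Sfrp5*, the gene of a secreted Wnt inhibitor, named after its values were seen, was at 0.47 on the log2 scale (adjusted p = 0.62). *Dkk2* and *Sfrp1* were not tested, and no tested Wnt receptor gene passed. *Wif1*, which encodes a protein that binds Wnt ligands outside the cell, held 1.16, 1.26, 1.16, 1.33 and 0 scaled counts in controls and 126, 283 and 725 at the lowest, median and highest in *Isl1CKO* (log2 fold change 8.28, standard error 0.66, adjusted p = 4.4e-06). *Dkk3* held 3.99 to 51.0 in controls and 228 to 611 in *Isl1CKO* (log2 fold change 4.57, adjusted p = 0.00061). *Frzb*, another secreted Wnt antagonist, fell from 2386 to 3407 to 180 to 957 (-2.34, adjusted p = 0.0011), and *Tle1*, a corepressor of Wnt target genes, rose by 2.29 (adjusted p = 0.0011). For all 4 genes the groups lay apart. They were the called genes among 29 tested of 35 (median 0.18), where 4.81% of all genes were called. *Ctnnb1*, the β-catenin gene, was at -0.03 (adjusted p = 0.95), *Wnt4* at 0.05 (adjusted p = 0.96) and *Celsr1* at -1.97 (adjusted p = 0.093). In the TGF-β and activin list *Acvr1c* fell, and *Skil*, a repressor of SMAD proteins, and *Id4* rose by 1.01 and 1.56 (adjusted p = 0.0012 and 0.0055). This made 3 of 23 tested, where 4.81% of all genes were called, with a median of 0.11. Of retinoid genes 3 of 8 rose, against 2.66% of all genes, and none fell, with a median of 1.60. *Aldh1a3*, which makes retinoic acid, held 3.49, 46.6, 15.1, 21.3 and 2.17 scaled counts in controls and 52.8, 227 and 434 at the lowest, median and highest in *Isl1CKO* (log2 fold change 3.77, adjusted p = 0.0093). *Rarres1*, named for its response to retinoids, held 3 counts over the controls and 2617 over *Isl1CKO*, a ratio of 536 (95% counting interval 183 to 2601), although *Isl1CKO* library 3 reached only 4.79 scaled counts. *Ttr*, the carrier of retinol-binding protein, rose by 1.07 (adjusted p = 0.014).

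Endoplasmic reticulum and calcium genes fell in part. Of 26 tested genes of folding and stress 5 were lower, against 2.14% of all genes, and none was higher, with a median of -0.45 that became 0.24 with plain totals, where 7 rose and 2 fell. Besides *Ero1lb*, *Sdf2l1*, a cochaperone gene, fell by 1.51 (adjusted p = 0.0036). *Atf4*, *Manf* and *Creld2* passed with log2 fold changes of -0.78, -0.67 and -0.90, but lost the call in 7, 7 and 10 of 11 fits that left out 1 library, and without *Isl1CKO* libraries 3 and 5 the list held 2 calls. The chaperone genes *Hspa5* and *Pdia3* were at -0.28 and 0.11 (adjusted p = 0.42 and 0.82). The calcium pumps of the endoplasmic reticulum fell: *Atp2a2* (SERCA2) from 6321, 9133, 6768, 8130 and 7216 scaled counts to 2544, 3358 and 3866 at the lowest, median and highest in *Isl1CKO*, and *Atp2a3* (SERCA3) from 1936 to 2649 to 371 to 1086 (log2 fold changes -1.21 and -1.73, adjusted p = 0.00016 and 0.00054). The groups lay apart for both pumps. *Itpr3*, a calcium release channel gene, rose by 0.93 (adjusted p = 0.0096), and the plasma membrane pump genes *Atp2b1* and *Atp2b4* were at -0.36 (adjusted p = 0.16) and 0.84 (adjusted p = 0.035, lost in 7 of 11 fits). Of the 17 calcium genes tested 3 rose and 3 fell (median -0.36), where 2.66% of all genes were higher and 2.14% lower. With hormone genes left out of the totals 1 rose and 6 fell.

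Of 14 immediate early genes tested, which respond within minutes to stimulation and also to tissue dissociation, 4 were lower, against 2.14% of all genes, and none was higher, with a median of -1.06. *Fos* held 11510, 9408, 7556, 7680 and 7740 scaled counts in controls and 1595, 2995 and 6363 at the lowest, median and highest in *Isl1CKO* (log2 fold change -1.29, adjusted p = 0.016). *Dusp1* fell by 2.18 (adjusted p = 0.00066), *Fosb* by 1.85 (adjusted p = 0.015) and *Jund* by 1.14 (adjusted p = 0.0081) on the log2 scale, while *Egr1* was at -0.46 (adjusted p = 0.47). The labels give 1 range of digestion times for all P9 tissue and none for single libraries, so stimulation in the tissue and in the dissociation cannot be told apart. Of 13 genes of class I antigen presentation and the interferon response edgeR called 0 (median 0.39), with 3 at an unadjusted p under 0.05, where 17.4% of all genes were, and 0 calls by voom, and DESeq2 called 1 of the 17 it tested. Over all genes DESeq2 called 9.46%. Of 25 genes of S phase and mitosis edgeR, DESeq2 and voom each called 0 (median 0.12), with 2 at an unadjusted p under 0.05, and *Top2a*, a topoisomerase gene of dividing cells, was at 741 to 2205 scaled counts in controls and 468 to 2923 in *Isl1CKO*.

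Of 76 genes of cytosolic ribosomal proteins 18 rose, by 0.52 to 0.79 on the log2 scale, and none fell (median 0.35), where 2.66% of all genes were higher. The count moved with the scaling, from 5 with hormone genes left out of the totals (median 0.24) to 74 with plain totals (median 1.02), and without *Isl1CKO* libraries 3 and 5 it was 7. *Rps14* held 5482 to 5710 scaled counts in controls and 6800 to 9316 in *Isl1CKO* (log2 fold change 0.56, adjusted p = 0.007). Of 75 nuclear genes of oxidative phosphorylation only *Cox6a2* was called, where 4.81% of all genes were, with a median of 0.14. As shares of all counts both groups of genes rose as the hormone share fell, from 0.752% to 0.985% to 1.44% to 2.24% for the ribosomal proteins and from 0.939% to 1.05% to 1.45% to 1.99% for oxidative phosphorylation. Mitochondrially encoded genes took 1.94% to 2.69% in controls and 2.68% to 3.89% in *Isl1CKO*, and of the 8 tested for oxidative phosphorylation edgeR, DESeq2 and voom each called 0, with 0 at an unadjusted p under 0.05. *Malat1*, a nuclear RNA named after its values were seen, held 149729 to 167166 scaled counts in controls and 214524 to 280117 in *Isl1CKO*, without overlap (log2 fold change 0.55, adjusted p = 0.0079). The part of RNA quality in the other differences was not tested.

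The labelled cell type was checked against markers. Every control library held insulin, glucagon, somatostatin and pancreatic polypeptide transcripts, somatostatin at only 0.00166% to 0.00836% of counts. Of 11 tested β-cell markers 9 were lower in *Isl1CKO* (median -1.73), where 2.14% of all genes were. α-cell markers went both ways, with 3 of 11 lower and 3 higher, against 2.14% and 2.66% of all genes (median -0.07, or 0.57 with plain totals). *Ripply3* (-2.58, adjusted p = 0.0086) and *Slc7a2* (-0.88, adjusted p = 0.0069) fell without overlap, whereas *Slc38a5*, an amino acid transporter that α cells induce under high amino acid supply, held 1075, 920, 380, 2268 and 470 scaled counts in controls and 2706, 5689 and 21370 at the lowest, median and highest in *Isl1CKO* (log2 fold change 2.93, adjusted p = 0.0056). *Meis2* and *Zcchc18* were at -0.07 and -0.07 (adjusted p = 0.91 and 0.87). *Hhex*, a transcription factor gene of δ cells, was near 0 in controls (1.08 to 4.66 scaled counts) and at 7.85 to 111 in *Isl1CKO*, where *Sst* was absent but for 3 counts. Its call (log2 fold change 4.05, adjusted p = 0.027) was lost in 4 of the 6 fits without 1 library in which it could be tested.

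Markers of other pancreatic and blood cells were found at low and uneven levels. Summed over 12 acinar genes, scaled counts ran from 773 to 16993 in controls and from 313 to 5069 in *Isl1CKO*, with 11 of 12 genes at negative log2 fold changes and a median of -1.57. Duct markers summed to 2083 to 2761 and 2208 to 6526, most of it *Krt7* and *Spp1*, hepatocyte markers to 115 to 274 and 244 to 824, and macrophage markers to 309 to 738 and 80.4 to 530. Endothelial, mesenchymal and erythroid markers summed to at most 969 scaled counts in any library, and lymphocyte markers to at most 1126. Of 32 tested genes in these 8 lists edgeR and voom called 0 and DESeq2 called 3, and 10 had an unadjusted p under 0.05, where 17.4% of all genes did. DESeq2 tested 50 genes of the 8 lists and called 7, where it called 9.46% of all genes it tested. Of the calls 3 were among the 8 macrophage genes that it tested. Of Schwann cell and neuron markers *Elavl4*, a gene that endocrine cells also express, was at -0.76 on the log2 scale (adjusted p = 0.049, lost in 9 of 11 fits). The part of other cells in the differences above was not tested.

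The E14.5 libraries show which P9 differences were not of the same size in the embryo. The difference of the *Isl1CKO* effect between the ages passed for 359 of 17265 genes (2.08%), 212 more positive and 147 more negative at P9. *Chgb* had a log2 fold change of 0.91 at E14.5 and 4.43 at P9, a difference of 3.52 (adjusted p = 1e-08 for the interaction term of 1 model over 22 libraries). For *Pde1a*, a calmodulin-dependent phosphodiesterase, *Dmd*, the dystrophin gene, *Gnas* and *App*, the E14.5 values lay between -0.07 and 0.28, while *Pde1a* rose from 10.1 to 95.3 scaled counts in P9 controls to 425 to 1198 in *Isl1CKO* and *Dmd* from 25.2 to 120 to 556 to 857. *Ccnd2*, which encodes cyclin D2, the main D-type cyclin of β cells, rose at E14.5 (1.42, adjusted p = 0.0066) and fell at P9. Its P9 scaled counts were 10207, 10540, 10208, 10090 and 10929 in controls and 4889, 5733 and 6881 at the lowest, median and highest in *Isl1CKO*, without overlap (log2 fold change -0.84, adjusted p = 0.00055; difference between the ages -2.25, adjusted p = 7.9e-05). *Rtn4*, *Fkbp1b*, *Ero1lb*, *Atp2a3* and *Trpm5* fell at P9 with E14.5 values of 0.09, -0.30, -0.43, 0.19 and -0.69, none of which passed. *Gcg* fell at both ages, with log2 fold changes of -3.77 and -6.03, and the difference of -2.25 did not pass (adjusted p = 0.38). The ages also differ in dissociation, since only P9 tissue was perfused with collagenase.

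**Figure D5:**
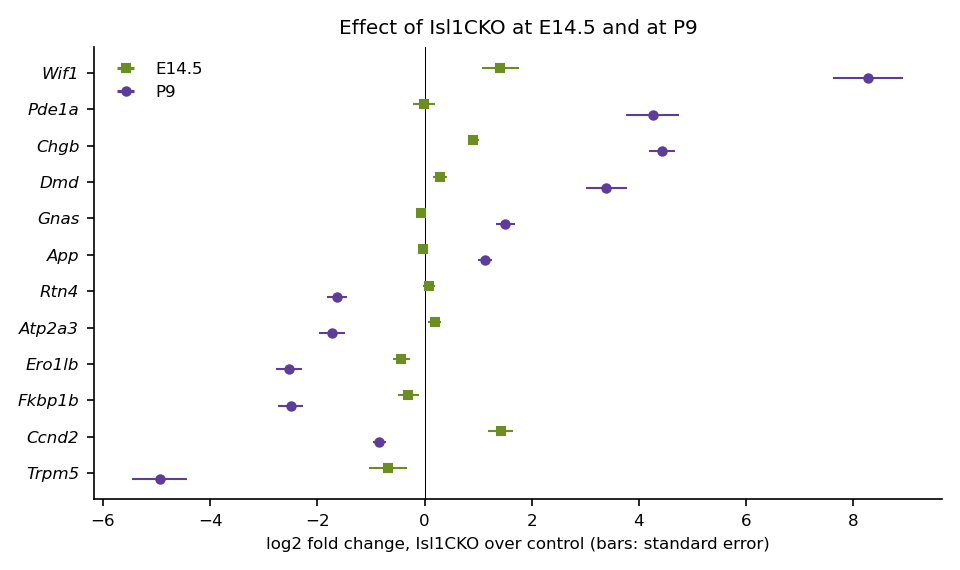
log2 fold change of *Isl1CKO* over control at E14.5 and at P9, with standard errors, for the 12 genes with the smallest p of the difference between the ages (6 in each direction). At P9 *Pde1a* (4.26), *Chgb* (4.43) and *Wif1* (8.28) lie far to the right of their E14.5 values, and *Ccnd2* changes side, from 1.42 to -0.84.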

How the data were processed

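RNA of 100 sorted tdTomato+ cells per library was sequenced, and the table deposited by the authors holds unnormalised read counts per gene. Per the labels and the study's methods, reads were trimmed with cutadapt 1.18, cleared of ribosomal RNA and vector sequence with Bowtie 1.2.2 and SortMeRNA, aligned to GRCm38.p6 with STAR 2.7.0c and counted without multi-mapped reads, so that closely similar genes can lose counts. The lowest summed count of a gene in the table is 10. Of 27504 gene IDs 27456 were found in the GENCODE M21 annotation, which gave symbols and coordinates.

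Groups came from the sample labels. Counts were scaled with TMM factors, and genes kept by filterByExpr were tested with edgeR 4.0.16 (glmQLFit and glmQLFTest, group as the only term, 11 P9 libraries, R 4.3.3). P-values were adjusted by the Benjamini-Hochberg method over all genes tested, and a gene was called at an adjusted p under 0.05. The standard error is the absolute log2 fold change divided by the square root of F. The effects at both ages were compared in 1 edgeR model over 22 libraries, through its interaction term. Shares and ratios were compared by two-sided exact permutation tests (scipy 1.17.1). Ratios for genes with at most 3 counts in a group have exact 95% intervals that cover counting error only. DESeq2 1.42.0, which the study used, limma 3.58.1 with voom, other scalings, filters and dispersions, a replicate block, an *Xist* term and leaving out each library in turn were the alternatives. The scripts were tested on simulated counts. In these the main test called 20% of genes raised 2-fold and 54% of genes raised 4-fold. Of genes lowered 2-fold and 4-fold it called 19.1% and 52.3%.

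The naming rules chose *Isl1*, the genes that the study's results name at P9, the 12 largest rises and 12 largest falls among called genes without overlap whose scaled counts averaged 50 or more, up to 6 called and the 2 most abundant uncalled members of each list, all hormone genes, the 6 genes of each direction with the smallest interaction p, called genes within 5 Mb of *Isl1*, and genes with 3 or fewer counts in 1 group and a mean of 50 or more in the other. Not every gene so chosen is described above. Among genes named by the study and left out, edgeR did not call *Pparg* (log2 fold change -3.59, adjusted p = 0.062), *Bcl6* (-1.34, 0.23), *Tgfbr3* (1.53, 0.072) and *Tab3* (1.47, 0.074). It called *Sez6l* (0.91, 0.0047), *Cldn4* (1.67, 0.021), *Gc* (2.11, 0.031) and *Evpl* (2.47, 0.0093). The members of the lists, the lists and the tests were chosen with earlier results of these data known. Upstream sequences are from RefSeq (GRCm38.p6), where *Ins2* and *Mafa* had no entry. Some genes of the transcription factor and α-cell lists are not reported here and were left out of the counts of these lists.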

Additional observations from a re-analysis of the deposited data

Results flagged for a closer look

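Among 76 groups of named values, 18 held 1 library whose gap to the others exceeded Dixon's 95% critical value. Chance reaches that value in about 1 in 20 groups only where values are normally distributed. Here shares and scaled counts were used without a log transform, and each outlying library was the highest of its group. The groups also overlap, since *Gcg* enters as share and as scaled count, so the number 18 is a description. *Isl1CKO* library 2 accounted for 5 of the 18. It held 0.367% of its counts as *Gcg* (0.00744% to 0.0301% in the other *Isl1CKO* libraries), or 37472 scaled counts (605 to 2692 in the others). It also held 0.680% as *Ppy* (0.0255% to 0.204%), 27.2 scaled counts of *Csf1* (0.833 to 3.55) and 80.6 of *Gip* (0 to 14). *Isl1CKO* library 5 was high for *Cidea* (739 scaled counts against 91.6 to 213), *Nt5e* (2128 against 410 to 878) and *Gm807* (361 against 0 to 5.75). Control library 5 held 76429 scaled counts of *Gip*, the incretin gene of intestinal K cells, against 0 to 2.66 in the other controls, 528 of *Fabp1*, a fatty acid binding protein gene of gut and liver, against 0, and 61.8 of *Nt5e* against 1.26 to 18.6. Single libraries also stood out for *Bglap3* (321 in *Isl1CKO* library 1), *Moxd1* (633 in *Isl1CKO* library 6), *Zfp804a* (375 in *Isl1CKO* library 4), *Grk5* (424 in control library 1), *Gm36169* (10.5 in control library 1), *Gm4791* (171 in control library 2) and the share of mitochondrially encoded genes (2.69% in control library 3).

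By the edgeR interaction term the effect of *Isl1CKO* differed between P9 and E14.5 in 68 of 198 genes that the naming rules chose and that could be tested, where 2.08% of all genes did. Many of them were chosen for their P9 difference and 12 for the interaction itself, so that the count is a description. Values are given for those 12, for *Isl1* and for *Meis2* and *Zcchc18*. The log2 difference, P9 minus E14.5, was 6.93 for *Wif1*, 4.29 for *Pde1a*, 3.52 for *Chgb*, 3.11 for *Dmd*, 1.59 for *Gnas*, 1.57 for *Isl1*, 1.17 for *App*, 1.10 for *Zcchc18* and 1.09 for *Meis2*. It was -4.25 for *Trpm5*, -2.25 for *Ccnd2*, -2.19 for *Fkbp1b*, -2.09 for *Ero1lb*, -1.92 for *Atp2a3* and -1.71 for *Rtn4*.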

How the results depend on the processing

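DESeq2 called 1695 genes at P9, which included 670 of the 671 called by edgeR, and 967 for the difference between the ages. Plain totals called 3975, of which 3824 were higher, and under that scaling 9 of the named genes with a negative log2 fold change in the main test passed with a positive one, namely *Ctnnb1* (0.63), *Hspa5* (0.39), *Neurod1* (0.58), *Pcsk2* (0.64), *Smad4* (0.60), *Syt13* (0.43), *Tox3* (0.46), *Zcchc18* (0.59) and *mt-Co1* (0.65). By its construction this scaling does not correct for the hormone share. With the other tests, scalings, filters and terms at P9 510 to 752 genes were called, apart from the replicate block. The study's limits on gene type, mean and fold left 463 of the 671 edgeR calls. The study applied these limits to DESeq2 results, so 463 is not its own count. Leaving out 1 library gave 467 to 682 calls, a log2 fold change of *Isl1* of 0.99 to 1.23, a difference in hormone share of 30.7 to 34.0 percentage points (32.3 over all libraries) and 299 to 484 calls for the difference between the ages. Of the 122 named genes that were called, 122 kept the call with DESeq2, 111 with voom, 117 with hormone genes left out of the totals, 110 with plain totals, 108 with no filter and 88 with the replicate block. When 1 library was left out 102 (control library 4) to 115 (*Isl1CKO* library 5) kept it, of 119 to 122 that could be tested, and 105 kept it without *Isl1CKO* libraries 3 and 5. Leaving out *Isl1CKO* libraries 3 and 5 together was chosen after seeing the data.

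No label says whether replicate numbers pair the libraries. Deviations of same-numbered libraries from their group means correlated at -0.026 to 0.054 over 5 pairs. The highest value, between the libraries numbered 4, was also the highest of any control with any *Isl1CKO* library. In all, 2 *Isl1CKO* libraries correlated best with the control of their own number. So few pairs cannot show whether the numbers stand for a shared litter or day. With the number as a replicate block, 333 genes were called at P9, 316 of them among the 671, the log2 fold change of *Isl1* was 0.94 (adjusted p = 0.066), and 130 genes were called for the difference between the ages. The cause of these changes was not tested. Each library holds 100 cells, so genes of rare cells rest on few cells, and a p that misses the threshold does not show that values did not differ.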

Other observations

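A few genes that could not be tested had nearly all their counts in 1 library. *Gip* held 76429 scaled counts in control library 5, more than *Chgb* in any control, and 0 to 2.66 in the other controls. *Fabp1* was found in the same library only, with 487 counts. *Gm807* held 443 counts over the *Isl1CKO* libraries, of which library 5 had most, and 1 over the controls. *Bglap3* held 371 counts over *Isl1CKO*, nearly all in library 1, and 3 over the controls.

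Within the α-cell list, members differed in whether the embryonic effect was still measured at P9. *Meis2* and *Zcchc18* were lower in *Isl1CKO* at E14.5 (log2 fold changes -1.16 and -1.16, adjusted p = 3e-06 and 1.3e-05 from edgeR) and at -0.07 and -0.07 at P9. The difference between the ages passed for both (1.09 and 1.10, adjusted p = 0.0045 and 0.00037). *Ripply3* and *Slc7a2* were lower at both ages, with E14.5 values of -2.11 and -1.12.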
